A study of Mus musculus with 7 samples.

Results

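The heat shock response genes described here are 10 mouse genes of protein folding: Hspa1a, Hspa1b, Hspa8, Hspa5, Hsph1, Dnajb1, Hspb1, Hsp90aa1, Hsp90ab1 and Hsf1. Every non-control probe that the scanner files name after one of these genes was taken, which gave 10 of 37074 gene names and 19 of 56605 probes. The glands came from nulliparous adult FVB mice of 20 to 25 weeks, all at diestrus, and 3 wild-type animals were set against 4 PRA transgenic animals with 1 array per animal. PRA transgenic mice overexpress the A form of the progesterone receptor, and their glands are labelled preneoplastic. They are bigenic: GAL-4, under the murine cytomegalovirus promoter, which is not restricted to epithelium, switches on a PR-A gene that carries GAL-4 binding sites. Wild-type animals are called littermates in the methods, and whether they carried either transgene alone is not given in the sources used here. Each animal gave 1 abdominal gland, without its lymph nodes. Gland RNA was labelled with Cy5 and hybridized beside Cy3-labelled Universal Mouse Reference RNA, a pool of RNA from mouse cell lines, so each log2 ratio is the level in the gland relative to that pool.

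Chaperones bind unfolded proteins and help them to fold or to be degraded. HSP70 proteins do this in cycles of ATP hydrolysis that J-domain proteins such as Dnajb1 start and HSP110 proteins such as Hsph1 reset, HSP90 proteins mature kinases and steroid receptors, and small heat shock proteins hold unfolded clients. Hsf1 is the transcription factor that turns on most of the inducible genes when unfolded proteins accumulate, by binding repeats of the unit GAA in alternating orientation. The progesterone receptor is itself a client of HSP70 and HSP90, which keep it able to bind hormone.

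Of the 19 probes, 17 were kept for testing, and all 10 genes kept at least 1 probe. The rule was that the scanner software called the Cy5 channel above background throughout 1 genotype or both. All 17 passed that call in both channels on all 7 arrays, and none of their spots was marked as an outlier. The probe of Hsp90aa1 that was not kept was above background on 0 of 7 arrays and that of Hsph1 on 4 of 7. For each gene the probe with the brightest mean Cy5 signal stands for it. Over the whole comparison 34288 probes were tested with limma, and their median log2 difference, PRA transgenic minus wild-type, was 0.02.

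The tissue and the arrays set limits on every value. Marker lists for mammary gland were present on all 7 arrays: the mean log2 ratio over the list lay between 3.09 and 3.98 for luminal epithelium, between 2.57 and 2.97 for basal epithelium and between 5.21 and 5.93 for white adipocytes. Skeletal muscle markers divided the arrays within both genotypes. List means were 2.05 and 3.00 in wild-type replicates 1 and 3 and 2.85 in PRA transgenic replicate 4. They were -0.75 to -0.43 in PRA transgenic replicates 1 to 3 and -0.62 in wild-type replicate 2. Of 12 muscle markers tested, 11 were lower in PRA transgenic glands (median difference -1.24), none at an unadjusted P under 0.05. Wild-type replicate 1 also held the highest T cell markers, with a list mean of 1.85 against at most 0.16 elsewhere. The same array held the highest B cell markers, with a list mean of 0.76 against at most -0.78 elsewhere. White adipocyte markers had 8 of 8 differences above 0 (median 0.20), while fibroblast and T cell markers had 6 of 6 below 0 each (medians -0.12 and -0.82), and the part of these lists in the members' differences was not tested. In a whole gland, fewer cells of a type and less RNA per cell cannot be told apart. All 7 arrays lay on 1 slide, with wild-type arrays in row 1 and PRA transgenic arrays in row 2. The row on the slide therefore cannot be told apart from genotype, and no dyes were swapped. Cy5 was above background at 62.7% to 66.2% of probes in wild-type and 56.7% to 60.2% in PRA transgenic arrays. For the Cy3 reference these shares were 53.2% to 54.0% and 47.2% to 50.6%, also without overlap. The part of this in the members' differences was not tested.

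No member passed an adjusted p under 0.05, against 0.0117% of all probes tested. At an unadjusted P under 0.05, 2 of 10 members were higher in PRA transgenic glands, Dnajb1 and Hsph1, where 4.54% of all probes were, and 0 of 10 were lower, where 4.48% of all probes were. The median log2 difference of the 10 members was 0.25, with 7 above 0 and 3 below. Dnajb1 and Hsf1 did not overlap between genotypes, with the PRA transgenic arrays higher, an arrangement found in 5.41% of all probes. No member was arranged the opposite way by its brightest probe, as 4.51% of all probes were.

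**Figure D1:**
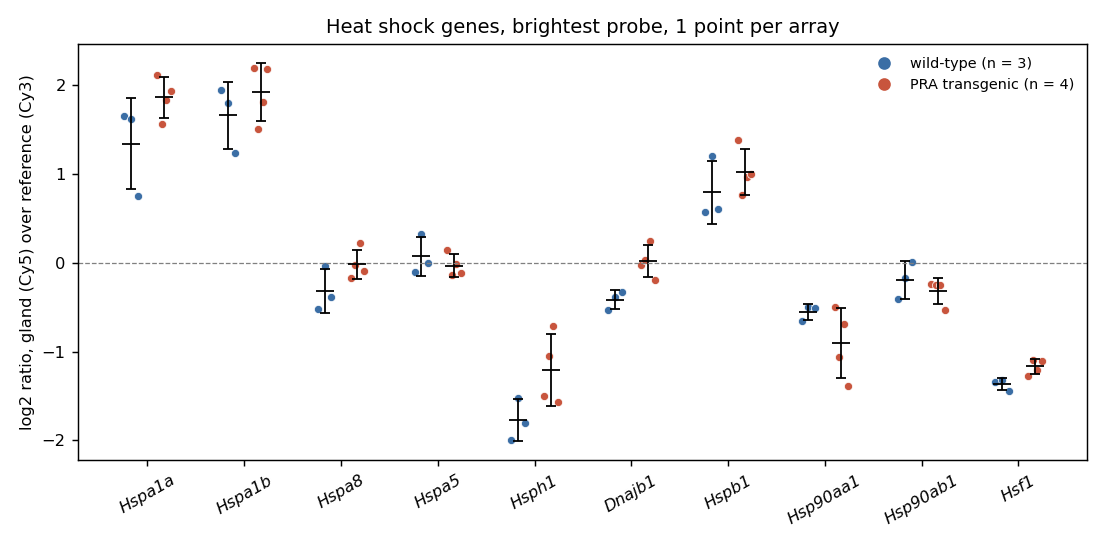
Log2 ratio of gland over reference (vertical axis) for the brightest probe of each of the 10 heat shock genes (horizontal axis), 1 point per array, wild-type in blue and PRA transgenic in red, with the mean and SD of each genotype in black. The genotypes do not overlap for Dnajb1 and Hsf1, and Hspa1a, Hspa1b and Hspb1 lie above the reference on all 7 arrays.

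Hspa1a and Hspa1b encode the stress-inducible cytosolic HSP70 and lie beside each other on chromosome 17. Both were above the reference on all 7 arrays. Log2 ratios of Hspa1a were 1.65, 1.62 and 0.76 in wild-type replicates 1 to 3 and 2.11, 1.56, 1.84 and 1.94 in PRA transgenic replicates 1 to 4. Wild-type replicate 3 stood below the other 6 arrays, and the genotypes overlapped. The difference of 0.52 (standard error 0.25; limma adjusted p = 0.603) fell within the spread between animals and was 0.23 without wild-type replicate 3.

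Hspa1b gave log2 ratios of 1.94, 1.80 and 1.23 in wild-type glands and 2.19, 1.51, 1.82 and 2.18 in PRA transgenic glands. Its lowest array was again wild-type replicate 3, and its highest, as for Hspa1a, PRA transgenic replicate 1. The difference was 0.26 (standard error 0.24; limma adjusted p = 0.799), and 0.05 without wild-type replicate 3. In Cy5 alone, scaled to the 75th percentile of each array, the differences were 0.47 for Hspa1a and 0.32 for Hspa1b.

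These are near-identical genes, so the probes decide what is being read. The first 30 of the 60 bases of each probe are printed to show how far the pair of probes differ, with mm9 positions as the files give them (Hspa1a, chr17:35106766-35106825, minus strand; Hspa1b, of which only a part is placed, chr17:35093374-35093405, minus strand):
Hspa1a probe: agggaaactaaactgtctttcagttacttt
Hspa1b probe: taatctaagtaggttaaagatggtgtagtc
Over their full length the longest run of bases that both probes share was 5, and 15 of 60 positions held the same base. The probes are therefore different sequences, while the genes' promoters are close to identical: 247 of the 250 bases before the start of Hspa1a and Hspa1b in RefSeq were the same.

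In the 250 bases before each start, a pair of heat shock units was sought in both spacings, GAANNTTC and TTCNNGAA, each of which reads the same on either strand and which can share a unit where several stand in a row. GAANNTTC occurred in 6.69% and TTCNNGAA in 7.17% of 32851 RefSeq promoters, and 12.8% held at least 1 of them. The table held 6 of the 10 members, Hspa1a, Hspa1b, Hspa5, Hsph1, Dnajb1 and Hspb1. The windows that hold a match are printed from RefSeq on GRCm38.p6, with the match in capitals (Hspa1a, chr17:34972233-34972280, minus strand; Hspa1b, chr17:34959315-34959362, minus strand; Hspb1, chr5:135887782-135887849, plus strand; Hsph1, chr5:149636342-149636389, minus strand):
Hspa1a: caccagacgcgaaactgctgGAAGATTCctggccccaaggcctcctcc
Hspa1b: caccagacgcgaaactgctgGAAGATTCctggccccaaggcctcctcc
Hspb1: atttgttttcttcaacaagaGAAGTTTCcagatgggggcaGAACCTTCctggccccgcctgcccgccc
Hsph1: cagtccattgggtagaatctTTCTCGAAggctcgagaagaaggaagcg
Counted from the start, the match began at position -104 in both Hspa1a and Hspa1b, and at -117 and -97 in Hspb1. Hsph1 has a pair of annotated starts, and its match began at -33 from one and -54 from the other. Neither of the 2 windows of Dnajb1 held these letters. A match is a string of letters and not evidence of binding in these glands.

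Hsph1, the HSP110 nucleotide exchange factor of HSP70, was below the reference on all 7 arrays. Its brightest probe (A_55_P2176963, chr5:150419744-150419803 on mm9, minus strand) read -1.99, -1.52 and -1.81 in wild-type replicates 1 to 3 and -1.50, -1.05, -0.71 and -1.57 in PRA transgenic replicates 1 to 4. PRA transgenic replicates 2 and 3 stood clear of the wild-type arrays, replicate 1 lay just above wild-type replicate 2 and replicate 4 just under it. This made a log2 difference of 0.57 (standard error 0.24; limma adjusted p = 0.552), or 1.48-fold. The second kept probe of Hsph1 read in the same direction, 0.35, but did not pass the unadjusted limit. Neither did the brightest probe without wild-type replicate 1 (0.46), wild-type replicate 3 (0.55), PRA transgenic replicate 2 (0.51) or PRA transgenic replicate 3 (0.40).

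Dnajb1, the J-domain protein that delivers clients to cytosolic HSP70, gave the lowest P among the brightest probes of the members. Its only probe (A_51_P153486, chr8:86135660-86135719 on mm9, plus strand) had log2 ratios of -0.53, -0.38 and -0.33 in wild-type glands and of -0.02, 0.03, 0.25 and -0.19 in PRA transgenic glands. The genotypes were apart, with a gap of 0.14 between the nearest pair of arrays and the PRA transgenic arrays higher. The difference was 0.43 (standard error 0.14; limma adjusted p = 0.461), or 1.35-fold, and 0.44 in Cy5 alone, while the Cy3 reference differed by 0.02. Genotypes did not overlap under any of 18 alternative settings. Without wild-type replicate 1, the array richest in T cell and B cell markers, the difference was 0.37 and no longer passed the unadjusted limit.

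Hspa8, the constitutive cytosolic HSP70, is covered by 4 probes along the gene on the plus strand of chromosome 9, and they did not agree on its size of difference. They are printed in order from the 5′ end because the value changes from one to the next (A_66_P137434, chr9:40610620-40610679; A_55_P2910890, chr9:40611362-40611421; A_55_P2909278, chr9:40611841-40611900; A_55_P2069721, chr9:40612755-40613050, all mm9):
A_66_P137434: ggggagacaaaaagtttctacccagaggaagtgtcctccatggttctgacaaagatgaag
A_55_P2910890: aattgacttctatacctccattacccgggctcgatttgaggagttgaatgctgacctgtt
A_55_P2909278: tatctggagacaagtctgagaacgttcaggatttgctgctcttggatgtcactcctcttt
A_55_P2069721: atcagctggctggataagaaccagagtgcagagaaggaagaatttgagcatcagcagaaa
The brightest probe is the last, nearest the 3′ end, with log2 ratios of -0.52, -0.04 and -0.39 in wild-type glands and -0.17, -0.03, 0.22 and -0.09 in PRA transgenic glands. Its genotypes overlapped, with a difference of 0.30 (standard error 0.16; limma adjusted p = 0.641), and 0.20 without wild-type replicate 1. The first probe read -0.94, -0.82 and -0.88 against -0.61, -0.07, 0.16 and -0.31. Here no PRA transgenic array overlapped a wild-type array, and the difference was 0.67 (standard error 0.19; limma adjusted p = 0.417). The probes between them gave 0.60 and 0.54, so the difference became smaller at each step toward the 3′ end, and at these 3 probes, unlike the last, the unadjusted P was under 0.05.

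The first probe minus the last gives that slope within each array, and is described without a test because it was taken up after the 4 differences had been seen. It was -0.42, -0.77 and -0.49 in wild-type glands and -0.44, -0.04, -0.06 and -0.22 in PRA transgenic glands, with overlap. The means differed by 0.37 in the log2 ratio. In Cy5 alone they differed by 0.43, and the genotypes did not overlap (-3.34 to -3.07 against -2.88 to -2.64). In the Cy3 reference they differed by 0.06, with overlap. A slope of this kind can follow RNA integrity, and it was therefore also taken over all 3527 genes with kept probes 500 to 10000 bases apart. This too was taken up after the Hspa8 values had been seen, and is described without a test. The row on the slide cannot be told apart from genotype here either. In the log2 ratio the median slope was -0.19 to -0.13 in wild-type arrays and -0.12 to -0.07 in PRA transgenic arrays, without overlap (difference 0.08). In Cy5 alone the medians overlapped (difference 0.05), as they did in the Cy3 reference (difference -0.00524). The part of RNA integrity in the Hspa8 values was not tested. Hspa5, Hsp90aa1 and Hsph1, with 2 or 3 kept probes each, showed no fall of this kind. From the 5′ end their probes gave -0.15, -0.03 and -0.11 for Hspa5, -0.33 and -0.36 for Hsp90aa1, and 0.35 and 0.57 for Hsph1. Their first and last probes are only 1214, 581 and 366 bases apart, against 2135 for Hspa8, so the distances are unlike.

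**Figure D2:**
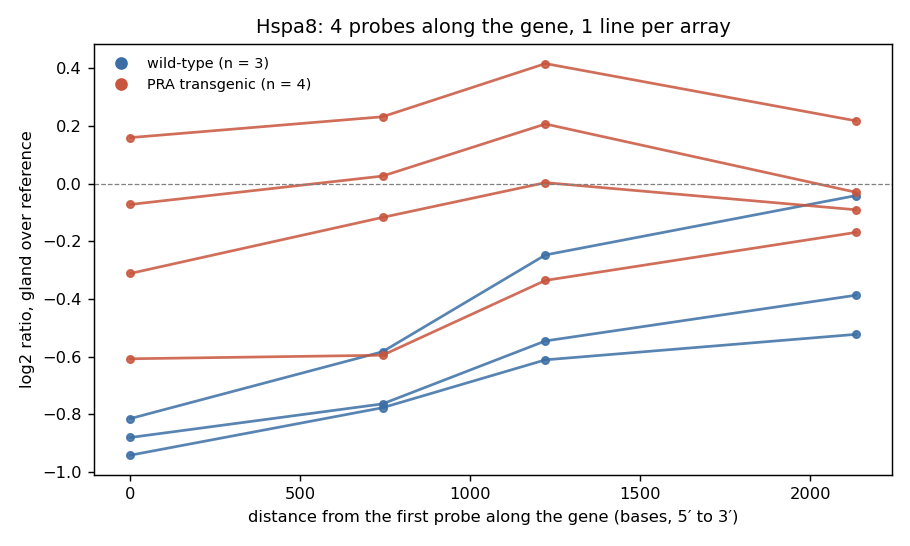
Log2 ratio of gland over reference (vertical axis) at the 4 Hspa8 probes, placed by their distance in bases from the first probe in the 5′ to 3′ direction (horizontal axis), with 1 line per array, wild-type in blue and PRA transgenic in red. The lines of the 2 genotypes are apart at the first probe, where the difference is 0.67, and overlap at the last, where it is 0.30.

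Hsp90aa1, the inducible cytosolic HSP90, had a lower mean in PRA transgenic glands but did not pass the unadjusted limit. Its brightest probe (A_55_P2796341, chr12:111932511-111932796 on mm9, minus strand) had log2 ratios of -0.66, -0.49 and -0.51 in wild-type glands and -0.50, -1.06, -0.69 and -1.38 in PRA transgenic glands. PRA transgenic replicates 2, 3 and 4 lay below every wild-type array and replicate 1 lay among them. The difference was -0.36 (standard error 0.22; limma adjusted p = 0.686), and -0.20 without PRA transgenic replicate 4. At the second kept probe, nearer the 5′ end, the arrays read -0.88, -0.86 and -0.84 against -1.11, -1.19, -0.92 and -1.53, where the genotypes did not overlap (difference -0.33, limma adjusted p = 0.603).

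Hsp90ab1, the constitutive HSP90, was close to the reference, at -0.41, -0.18 and 0.01 in wild-type glands and -0.24, -0.25, -0.25 and -0.53 in PRA transgenic glands. PRA transgenic replicate 4 was lowest for both HSP90 genes. The difference of -0.12 (standard error 0.15; limma adjusted p = 0.849) was smaller than the spread between animals, and ran from -0.23 to -0.02 as each array was left out.

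Hspa5, the HSP70 of the endoplasmic reticulum and a target of the unfolded protein response, did not separate the genotypes. Its brightest probe read -0.11, 0.32 and 0.00 in wild-type glands and 0.14, -0.14, -0.02 and -0.11 in PRA transgenic glands, a difference of -0.11 (standard error 0.15; limma adjusted p = 0.881). The endoplasmic reticulum stress element, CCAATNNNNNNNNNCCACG, was sought on both strands of the same promoters and was present in 0.113% of them. Hspa5 holds it at positions -65 to -47 from its start, shown in capitals (GRCm38.p6, chr2:34772005-34772063, plus strand):
Hspa5: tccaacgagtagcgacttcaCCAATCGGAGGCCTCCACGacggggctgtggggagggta
Of the other 21 genes of endoplasmic reticulum chaperones and the unfolded protein response, 8 were above 0 and 13 below, with a median difference of -0.08.

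Hspb1, the small heat shock protein HSP27 of epithelial and muscle cells, was above the reference on all 7 arrays. It read 0.57, 1.20 and 0.61 in wild-type glands and 1.38, 0.76, 0.97 and 1.00 in PRA transgenic glands. Wild-type replicate 2 lay above 3 of the 4 PRA transgenic arrays, and the difference of 0.23 (standard error 0.22; limma adjusted p = 0.797) did not exceed the spread, and ran from 0.12 to 0.44 as each array was left out.

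Hsf1 itself was below the reference on every array, at -1.34, -1.32 and -1.45 in wild-type glands and -1.27, -1.10, -1.20 and -1.10 in PRA transgenic glands. No arrays of the 2 genotypes overlapped, though the nearest pair were only 0.05 apart. The difference was 0.20 (standard error 0.11; limma adjusted p = 0.644). In Cy5 alone it was 0.11 and the genotypes overlapped, while the Cy3 reference differed by -0.08 the other way.

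**Figure D3:**
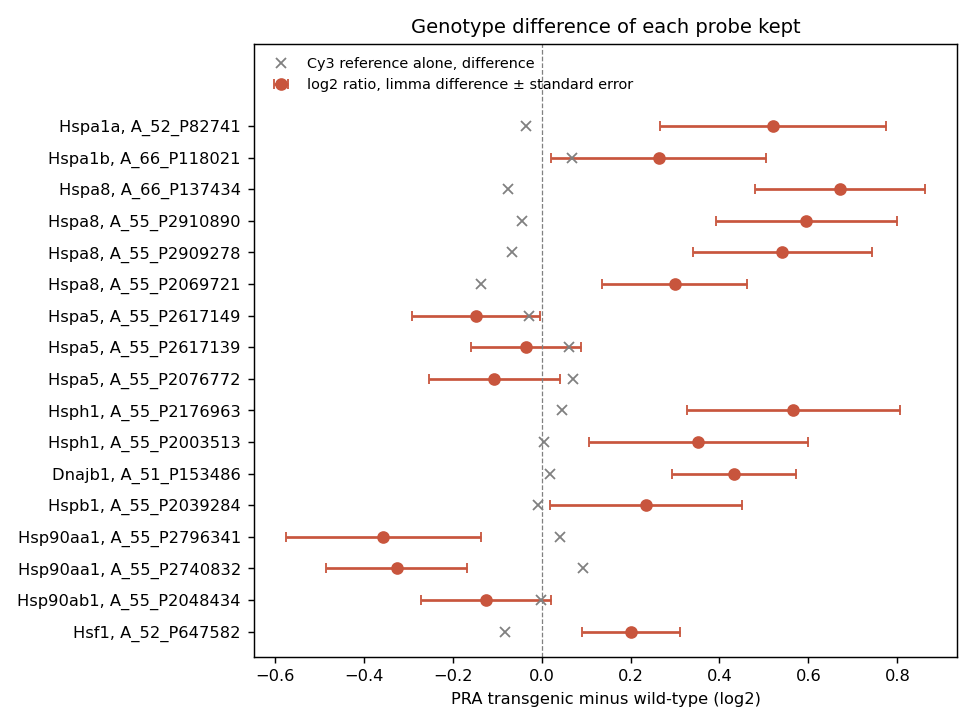
Difference between genotypes, PRA transgenic minus wild-type on the log2 scale (horizontal axis), for each of the 17 kept probes of the heat shock genes (vertical axis), with the limma standard error as a bar. Grey crosses give the difference of the Cy3 reference alone, which ranged from -0.14 to 0.09, and the probes of Hspa8 range from 0.30 to 0.67.

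The arrays ordered the members in several ways. For Hspa8, Hsph1 and Dnajb1 the highest array was PRA transgenic replicate 3 and the lowest wild-type replicate 1. For Hspa1a and Hspa1b, and for Hspb1, the highest was PRA transgenic replicate 1. Among the 87 tested genes of the pathway lists described next, PRA transgenic replicate 3 was the highest array for 29 (33.3%, against 14.0% of all probes) and PRA transgenic replicate 4 the lowest for 27 (31.0%, against 15.9%), which sets 2 animals of the same genotype apart. This ordering was looked at after the members' values were seen.

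The wider chaperone network was described with 9 lists holding 89 genes, of which 87 could be tested and Hspa1l and Hspb3 could not. In all, 52 differences were above 0 and 35 below, with a median of 0.05. At an unadjusted P under 0.05, 6 were higher and 2 were lower in PRA transgenic glands, that is 6.90% and 2.30% beside the 4.54% and 4.48% of all probes. In 10 genes all PRA transgenic arrays were above the wild-type arrays and in 5 all were below, that is 11.5% and 5.75% beside the 5.41% and 4.51% of all probes. None passed an adjusted p under 0.05, and the lowest adjusted p was 0.302. By list, the median was 0.28 for heat shock factors and their binding proteins (3 of 4 above 0), 0.14 for chaperonins (9 of 10), 0.12 for the HSP90 family and its co-chaperones (9 of 13), 0.10 for small heat shock proteins (4 of 5), 0.08 for mitochondrial chaperones and proteases (4 of 6), 0.05 for the other cytosolic HSP70 and HSP110 genes (4 of 7), 0.01 for HSP70 co-chaperones (6 of 9), and -0.08 both for J-domain proteins (5 of 12) and for the endoplasmic reticulum list.

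The largest differences of the network were in a pair of neighbouring small heat shock genes. Cryab encodes alpha B-crystallin, a small heat shock protein of lens, muscle and myoepithelium, and Hspb2 its neighbour. Cryab (A_55_P1964408, chr9:50564566-50564625 on mm9, plus strand) had log2 ratios of 0.57, -0.54 and -0.48 in wild-type glands and 2.25, 1.82, 1.90 and 1.15 in PRA transgenic glands. The genotypes were apart by at least 0.59. The difference was 1.93 (standard error 0.35; limma adjusted p = 0.302), or 3.80-fold, and 2.21 in Cy5 alone.

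Hspb2 (A_52_P222624, chr9:50559211-50559270 on mm9, minus strand) read 0.90, -0.40 and 0.09 in wild-type glands and 2.26, 1.75, 1.52 and 1.54 in PRA transgenic glands. Its genotypes were again apart, by at least 0.62, and wild-type replicate 1 was the highest wild-type array for both genes. The difference was 1.57 (standard error 0.33; limma adjusted p = 0.340), or 2.97-fold. Across 18 alternative settings the difference stayed between 1.73 and 2.29 for Cryab and between 1.27 and 1.92 for Hspb2, with no adjusted p under 0.195.

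Cryab and Hspb2 are known to be expressed in skeletal muscle, whose markers differed widely between arrays within each genotype. Among muscle-poor arrays, wild-type replicate 2 was at -0.54 for Cryab and -0.40 for Hspb2. PRA transgenic replicates 1 to 3 were at 1.82 to 2.25 and at 1.52 to 2.26. Among muscle-rich arrays, wild-type replicates 1 and 3 were at 0.57 and -0.48 for Cryab and at 0.90 and 0.09 for Hspb2. PRA transgenic replicate 4 was at 1.15 and 1.54. The part of muscle in the result was not tested. Basal epithelial markers, the other cells known for Cryab, lay between 2.57 and 2.88 in wild-type and between 2.81 and 2.97 in PRA transgenic arrays. Of 7 basal markers tested, 6 were higher in PRA transgenic glands and 1 was lower (median difference 0.08), none at an unadjusted P under 0.05. The part of basal epithelium in the result was not tested. The remaining small heat shock genes did not separate the genotypes: the difference was 0.05 for Hspb6, -0.27 for Hspb7, whose highest array was the muscle-rich PRA transgenic replicate 4 at 2.23, and 0.10 for Hspb8.

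**Figure D4:**
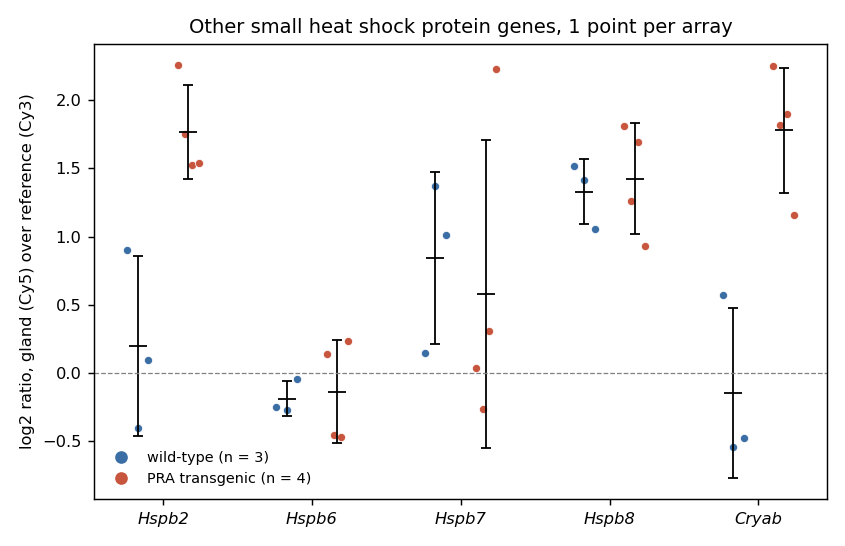
Log2 ratio of gland over reference (vertical axis) for the small heat shock genes other than Hspb1 (horizontal axis), 1 point per array, with the mean and SD of each genotype in black. Cryab and Hspb2 separate the genotypes, by differences of 1.93 and 1.57, and the other 3 genes do not.

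Other genes of the network at an unadjusted P under 0.05 had smaller differences at their brightest probes. Chordc1, an HSP90 co-chaperone that heat shock induces, read -0.07, 0.00 and -0.17 in wild-type glands and 0.27, 0.34, 0.55 and 0.10 in PRA transgenic glands, a difference of 0.40 (limma adjusted p = 0.471), and its second probe gave 0.64. The genotypes did not overlap at either probe. Cct7, a subunit of the cytosolic chaperonin, differed by 0.36 without overlap. Dnaja2, a J-domain partner of Hspa8, differed by -0.34, again without overlap. Pdia4, a disulfide isomerase of the endoplasmic reticulum, read -0.54, -0.65 and -0.53 against -0.98, -1.08, -0.95 and -0.86, a difference of -0.39 (limma adjusted p = 0.412).

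Hsf4, a heat shock factor known from the lens, differed by 0.36 (limma adjusted p = 0.443) at its brightest probe, with 0.19 in Cy5 alone and -0.16 in the Cy3 reference. Its second kept probe, which was dimmer, gave 0.94 without overlap, and under normexp and loess the brightest gave 0.14. Hsf2, another factor of the family, read -0.68, -0.62 and -0.67 against -0.28, -0.46, -0.36 and -0.61, with a difference of 0.23 that did not pass the unadjusted limit. Its genotypes did not overlap, but the nearest pair of arrays were only 0.00104 apart. Sgta, Dnaja1 and Stip1, which hand clients between HSP70 and HSP90 or onto membranes, had differences of 0.30, 0.29 and 0.28, and none of these had an unadjusted P under 0.05. On the other side, Dnajc2 (-0.38), a J-domain protein of the ribosome, Manf (-0.19), a secreted protein induced by stress of the endoplasmic reticulum, and Hspa13 (-0.16) were lower without overlap between genotypes, and also did not pass that limit.

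**Figure D5:**
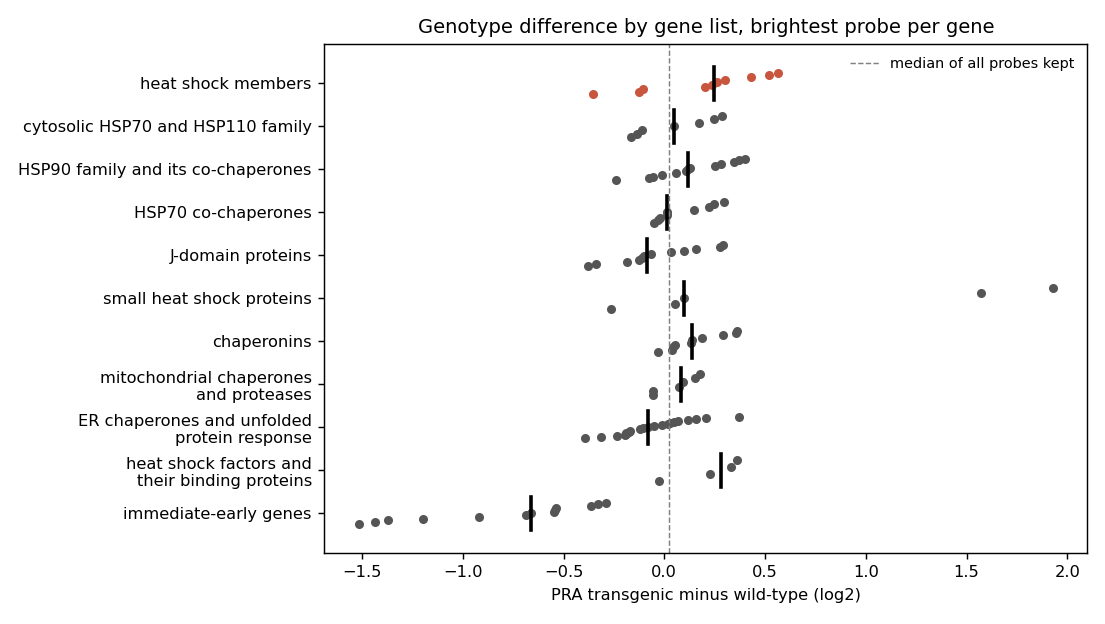
Difference between genotypes, PRA transgenic minus wild-type on the log2 scale (horizontal axis), for the brightest probe of each gene in the heat shock members (red), the 9 chaperone lists and the immediate-early genes (grey), with the median of each list as a black bar and the median of all probes as a dashed line. Most chaperone genes lie near the dashed line, Cryab and Hspb2 lie far to its right, and all 13 immediate-early genes lie to its left.

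Another stress-responsive group, the immediate-early genes, which respond within minutes to many stimuli, was lower in PRA transgenic glands at every gene: 13 of 13 differences were below 0, 10 of them at an unadjusted P under 0.05, where 4.48% of all probes were, and none at an adjusted p under 0.05, with a median of -0.66. The list mean was -1.26, -1.11 and -0.84 in wild-type glands and -1.98, -1.84, -1.95 and -1.70 in PRA transgenic glands, without overlap. Egr1 gave -1.51, Fos -1.37 and Junb -0.69. The authors had already listed Egr1, Egr3, Fosb, Junb, Ier2, Nr4a1 and Zfp36 as lower in these same glands. The count beside the 4.48% is therefore no independent result. The part of the immediate-early genes in the values of the heat shock members was not tested.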

How the data were processed

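Total RNA of 7 mouse mammary glands, 3 wild-type and 4 PRA transgenic, was measured on 2-color Agilent arrays against a reference RNA. The authors deposited Agilent Feature Extraction (version 12.0 in the submitters' processing notes) output, whose intensity values are background-subtracted and dye-normalized, and a series table of log2 values. That table equals the log2 ratio computed here minus each probe's median (56526 probes, within 0.01), and was an alternative only.

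Control spots and outliers were dropped, and log2(Cy5/Cy3) was averaged over repeat spots of 1 probe. Probe positions are mm9. Names followed RefSeq (GRCm38.p6) by accession for 32994 probes, by symbol for 10224 and by an older symbol for 520. Of 56605 probes, 34288 were tested with limma 3.58.1 in R 4.3.3 and adjusted by Benjamini-Hochberg. No pseudocount was used and no spot was saturated. The methods' unpaired t-test was an alternative. Differences rest on 7 arrays, whose number limits the precision. The step was also tested on simulated data, where the changes put in were larger than any member's difference here. The members and lists were chosen with earlier results of these data known. Named genes are all 10 members and, per pathway list, up to 4 genes with the lowest P under 0.05, of which 1 is not reported here; Hspb6, Hspb7, Hspb8, Hsf2, Dnajc2, Manf, Hspa13, Sgta, Dnaja1, Stip1 and the immediate-early genes were named after their values were seen. Replicate numbers were not taken to pair the animals in the main fit.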

Additional observations from a re-analysis of the deposited data

Results flagged for a closer look

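Among 39 sets of 4 PRA transgenic arrays examined for a sample far from the rest, 3 were singled out, where chance gives about 1.95. In Hsp90ab1, PRA transgenic replicate 4 lay below the other 3 by 0.940 of the whole range of the 4 arrays. The same animal lay above the other 3 by 0.910 of the range for the skeletal muscle markers and by 0.870 for the fibroblast markers.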

How the results depend on the processing

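Members with an adjusted p under 0.05 numbered 0 under all 18 alternatives. The 2 members at an unadjusted P under 0.05 became 1 with no filter on dim probes (Hsph1 was lost). Hsph1 was also lost by the methods' t-test and with each gene's probes summarised by their median, where the count stayed at 2 because Hsf1 or Hspa8 passed instead. When each array was left out the count was 0 to 3, with 0 without wild-type replicate 1. Members whose genotypes do not overlap numbered 2, but 1 in Cy5 alone. They numbered 2 to 5 when an array was left out, with 5 without wild-type replicate 2. Fewer arrays separate more easily, so these counts cannot be set beside the main count. The 8 pathway genes at an unadjusted P under 0.05 became 15 by the methods' t-test. They became 4 to 12 when an array was left out, with 4 without wild-type replicate 3 or PRA transgenic replicate 3. The shares of all probes were counted for the main fit only, so counts under an alternative have no share beside them. With the replicate number as a block the pathway count was 4, the member count stayed at 2 and Dnajb1 differed by 0.50 (limma adjusted p = 0.474). Same-numbered animals deviated together at correlations of 0.10, -0.30 and 0.04, and animals of unlike number at -0.30 to 0.38. The labels state no pairing. These correlations rest on deviations from means of few arrays and cannot decide whether one exists. With an array left out Hspa5 ran from -0.20 to 0.0188, the latter, a reversal, without wild-type replicate 2. The causes were not tested. A split by muscle markers, added after seeing the data, leaves 1 array in 1 arm of each part, so its values carry no test and bear on no cause. Among muscle-poor and muscle-rich arrays the differences were 0.21 and 0.73 for Hspa1a, 0.03 and 0.59 for Hspa1b, 0.05 and 0.36 for Hspa8, -0.33 and -0.06 for Hspa5, 0.44 and 0.33 for Hsph1, 0.47 and 0.24 for Dnajb1, -0.17 and 0.41 for Hspb1, -0.25 and -0.80 for Hsp90aa1, -0.07 and -0.33 for Hsp90ab1, 0.13 and 0.29 for Hsf1, 0.60 and 0.03 for Cct7, 2.53 and 1.11 for Cryab and 2.25 and 1.04 for Hspb2. The slide could not be fitted as a block because there was 1.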
